A study of Rattus norvegicus with 3 samples.

Results

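The cytosolic ribosomal protein (RP) genes encode the proteins of the ribosome that translates messenger RNA in the cytosol. Members were all gene names that begin with Rps, Rpl or Rplp followed by a digit, without the Rps6k kinases, which gave 89 of the 20896 gene names in the 3 cluster tables together. Members made up 89 of 19241 gene names in sham, 88 of 19665 in UAC and 86 of 19725 in UAC + miR-330. Of a list of 76 core genes of the cytosolic ribosome, 71 were listed: 26 of 30 of the small subunit, 43 of 43 of the large subunit and 2 of 3 of the P stalk. Rps7, Rps9, Rps14, Rps26 and Rplp1 were not listed under these names. Another 8 members are paralogs, and 10 have names of pseudogene-like copies or of other genes, among them Rps19bp1, whose product binds RPS19 and is no part of the ribosome.

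As background, each ribosome holds one copy of nearly every RP, and cells make the subunits in matched amounts for growth and division. Mammalian RP messenger RNAs begin with a 5′ terminal oligopyrimidine (TOP) tract, through which the kinase mTOR controls their translation together. Inherited variants in several RP genes cause Diamond-Blackfan anaemia, a failure of red cell precursors in bone marrow, the tissue that lies within subchondral bone.

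The study followed degeneration of the temporomandibular joint (TMJ) condyle in rats under unilateral anterior crossbite (UAC), an uneven bite that loads the joint. All animals were wild-type SD rats and all received an adeno-associated virus (AAV) into the TMJ. The sham group received Vector AAV without a crossbite, the UAC group Vector AAV with the crossbite, and the UAC + miR-330 group the miR-330 AAV with the crossbite. For each group, 16 condyles from 8 rats, as cartilage and subchondral bone, were pooled into 1 single-cell 3′ library. The labels give neither age nor time, and the methods of the study name a common duration for the animals with AAV. With 1 library per group there are no replicates, so animals, pools, library preparation and treatment cannot be told apart, and the intervals given cover counting error only.

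The tables give a mean per gene and cluster, from which whole counts of unique molecules (UMIs) were recovered: 77668015 in sham (15 clusters), 92629658 in UAC (18 clusters) and 97255383 in UAC + miR-330 (19 clusters). Levels are given as CPM, the UMIs of a gene scaled to a common total (counts per 1000000). Cells per cluster are not known and no cell barcodes are in the tables, so fewer cells of a type and less RNA per cell cannot be told apart in these sums. The labels name chondrocytes and osteoclasts. Clusters named B-like held 57.4% of the UMIs in sham, 47.9% in UAC and 52.5% in UAC + miR-330, and the 1 cluster per library with cartilage markers (14 of 19 markers enriched in sham, 15 in UAC and 16 in UAC + miR-330) held 11.6%, 6.46% and 6.05%. Markers of other skeletal cells lay in it too: 7 fibroblast markers were enriched in each library, Col1a1 was among its leading genes, and no separate osteogenic or fibroblast cluster was named, so each chondrocyte-like value may include other skeletal cells. No cluster could be named osteoclast. The 8 osteoclast markers summed to 239, 226 and 194 CPM in the same order, with Acp5 the most abundant in each and Dcstamp at 0 in sham and in UAC + miR-330. Clusters that met no class, or more than 1, held 16.6%, 24.6% and 22.3% of the UMIs, and some of these carried B markers too. The rule that names clusters was settled after the tables were seen.

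RP genes took 13.0% of all UMIs in sham, 11.7% in UAC and 9.87% in UAC + miR-330. Among single clusters the share ran from 1.98% to 20.0% in sham with a median of 12.5%, from 1.64% to 21.8% in UAC with a median of 11.5%, and from 1.53% to 17.0% in UAC + miR-330 with a median of 9.61%. In each library mature neutrophil-like clusters were lowest, chondrocyte-like clusters lay below macrophage-like ones, and cycling precursors or T and NK-like cells were highest. B-like clusters together changed rank, at 13.6% above both in sham, at 12.2% between them in UAC and at 9.71% below both in UAC + miR-330. Clusters were made from these same genes among others, so differences between clusters are descriptions.

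Mature neutrophils, short-lived cells with condensed nuclei, had the lowest RP shares. Their 2 clusters in sham together gave 2.08% (exact binomial 95% interval 2.07 to 2.09), the 3 in UAC 1.90% (1.89 to 1.91) and the 3 in UAC + miR-330 1.78% (1.77 to 1.79). Low too were unnamed clusters with markers of granule-forming granulocyte precursors: 5.50% in sham cluster 14, where erythroid markers were as many, 2.99% in UAC cluster 18 and 5.60% in UAC + miR-330 cluster 18. UAC cluster 18 also had 4 mature neutrophil markers, and UAC + miR-330 cluster 18 had 6 mast cell and basophil markers, so the 3 are not alike. UAC cluster 13, with 7 of 8 mast cell and basophil markers, gave 6.74%. UAC cluster 14 gave 15.1%, with 5 of 10 dendritic cell markers and 4 of 18 B markers enriched over the rest. On a wider measure, at least 4 times the mean of a marker's 3 lowest clusters, it had 12 of 18 B markers. UAC + miR-330 cluster 5, with haemoglobin and immunoglobulin genes among its leading genes, gave 4.99%.

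**Figure D1:**
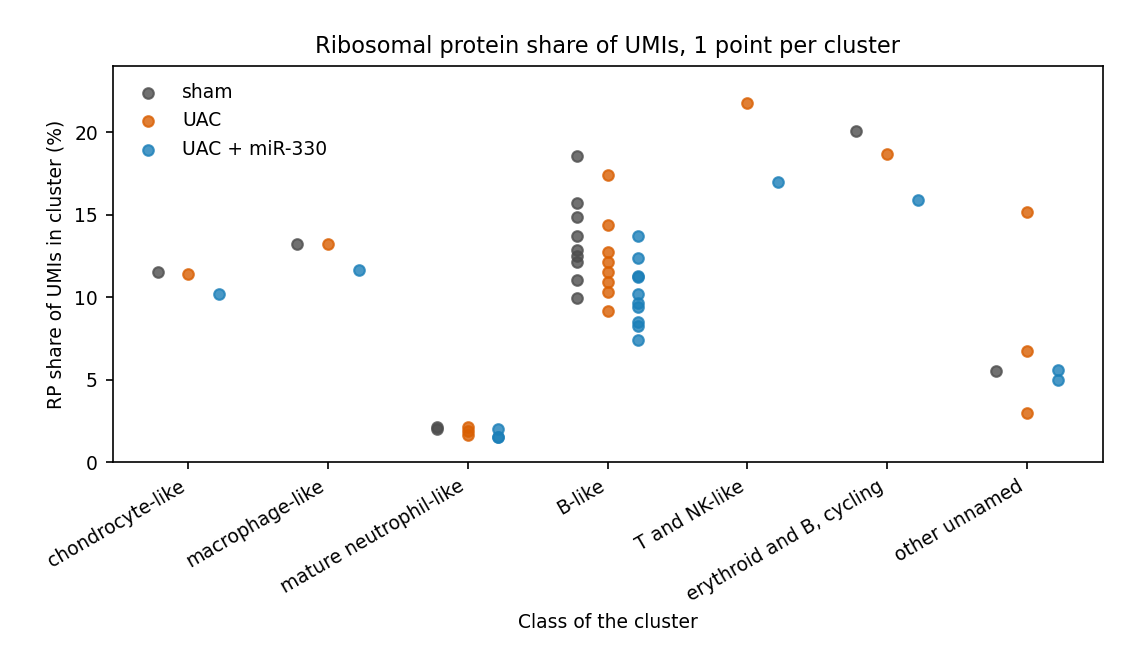
RP share of UMIs in percent (vertical axis) for each cluster, grouped by class (horizontal axis) and coloured by library, 1 point per cluster. Mature neutrophil-like clusters lie at or below 2.14%, and the cycling cluster with erythroid and B markers is at 20.0% in sham, 18.7% in UAC and 15.9% in UAC + miR-330.

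The highest share in sham belonged to cluster 13, which carried Car1, Hbe1 and Car2 among its leading genes and 12 of 12 cycling markers, and was left unnamed. Over the rest of the library 3 of 11 erythroid and 2 of 18 B markers were enriched in it. On the wider measure, at least 4 times the mean of a marker's 3 lowest clusters, it had 11 of 18 B markers. A cluster of the same kind stood in each library, at 20.0% in sham, 18.7% in UAC and 15.9% in UAC + miR-330, and gave 22.5%, 23.8% and 25.3% of all RP UMIs. T and NK-like cells formed a cluster in the UAC libraries alone, with 21.8% (21.7 to 21.8) in UAC and 17.0% (16.9 to 17.0) in UAC + miR-330. Those values were the highest of their libraries.

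Within the B lineage the share differed with the leading marker. The cluster led by Dntt, the enzyme that adds bases to antibody gene joints in early B cells, had 18.6% in sham, 17.4% in UAC and 13.7% in UAC + miR-330. The cluster led by Ms4a1, which encodes CD20 of mature B cells, had 12.5%, 10.9% and 8.48%. Cycling B-like clusters had 13.7%, 12.1% and 9.89%, lower in each library than the Dntt-led cluster. They had at most 1 B marker enriched over the rest of their library, and were named by B markers above their lowest clusters. Over all single B-like clusters the share ran from 9.94% to 18.6% in sham, from 9.17% to 17.4% in UAC and from 7.40% to 13.7% in UAC + miR-330.

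The chondrocyte-like cluster gave 11.5% in sham (11.5 to 11.6), 11.4% in UAC (11.4 to 11.4) and 10.2% in UAC + miR-330 (10.2 to 10.2). The macrophage-like cluster gave 13.2% in sham, 13.2% in UAC and 11.6% in UAC + miR-330. Both subunits moved together over clusters: the ratio of small to large subunit UMIs (P stalk genes counted with the large subunit) ran from 0.647 to 0.724 in sham, from 0.650 to 0.752 in UAC and from 0.665 to 0.810 in UAC + miR-330, while the RP share itself ranged 10.1-fold, 13.3-fold and 11.1-fold. The highest ratio, 0.810, came from a mature neutrophil-like cluster with 33490 RP UMIs, the fewest of any cluster in that library. The next, 0.799, came from UAC + miR-330 cluster 18, with 195012 RP UMIs.

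Between UAC and sham, a comparison that asks what the crossbite does to the joint, the RP share was lower in UAC, with a difference of −1.301 percentage points and a log2 ratio of −0.15. The chondrocyte-like cluster differed little, with a log2 ratio of −0.02, and the macrophage-like cluster had 0.00 with intervals that overlap. B-like clusters had −0.16, the mature neutrophil-like clusters −0.13 and the cycling cluster with erythroid and B markers −0.10. The neutrophil class is not made of the same clusters. The Lcn2 and Ngp-led clusters had 2.14% in both libraries and the Ifit3-led ones 1.98% in sham and 1.90% in UAC. UAC cluster 7, led by Mmp9 and at 1.64%, has no clear match among the sham clusters. Retnlg was a leading gene of it and of the Ifit3-led sham cluster, so whether that sham cluster holds such cells cannot be told. The differences between classes were not tested. The difference was also split over 6 parts: chondrocyte-like, macrophage-like, mature neutrophil-like and B-like clusters, the cycling cluster with erythroid and B markers, and all other clusters pooled, T and NK-like cells among them. Within the first 5 parts lay −0.981 points, within the pooled remainder 0.340 points, and in the UMIs each part held −0.659 points. The remainder sets 1 sham cluster at 5.50% against 4 UAC clusters at 10.3% together, which are not the same kinds of cells, so its value is no difference within a cell type.

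Between UAC + miR-330 and UAC, a comparison that asks what the miRNA adds under the crossbite, every class had a lower share in UAC + miR-330. The whole-library log2 ratio was −0.24 (difference −1.81 points). By class it was −0.36 in T and NK-like cells, −0.33 in B-like clusters, −0.24 in the cycling cluster with erythroid and B markers, −0.18 in the macrophage-like cluster, −0.16 in the chondrocyte-like cluster and −0.10 in mature neutrophil-like clusters. Within the first 5 of the same 6 parts lay −1.87 points, within the remainder −0.195 points, and in the makeup of the library 0.261 points the other way. The T and NK-like clusters compared are not alike: in UAC + miR-330 the cluster also had 6 mast cell and basophil markers enriched. In UAC such markers lay in cluster 13, at 6.74%, beside 5 early granulocyte markers. UAC + miR-330 cluster 18, at 5.60%, had 6 mast cell and basophil markers too. B-like clusters differ in the same way: UAC cluster 14, at 15.1% and with Cxcr5, Lax1 and Sh3gl2 among its leading genes, was left unnamed, while UAC + miR-330 cluster 8, led by the same genes and at 12.4%, counts as B-like. UAC + miR-330 against sham gave −0.40 for the whole library, −0.49 in B-like clusters, −0.18 in the chondrocyte-like cluster and −0.22 in mature neutrophil-like clusters. All 3 comparisons share libraries, so their values are not independent.

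A share of UMIs is lower also where other UMIs are more. The tables' mean counts sum to 4541 in every sham cluster, 5200 in every UAC cluster and 6124 in every UAC + miR-330 cluster, and on that scale the direction of the group turns over the whole library and in the chondrocyte-like cluster. It does not turn in UAC + miR-330 against UAC in B-like clusters, where the members' median stays at −0.08, and in T and NK-like cells, also at −0.08, and for UAC against sham it stays just below 0 in mature neutrophil-like clusters. From CPM the median log2 ratio of the 81 members tested was −0.15 for UAC against sham and −0.23 for UAC + miR-330 against UAC; from the deposited mean counts it was 0.05 and 0.01. The median of all genes moved with it, from −0.02 to 0.17 and from 0.13 to 0.37. Set against the median of all genes, the members' median was −0.13 for UAC against sham and −0.36 for UAC + miR-330 against UAC, which no common scaling alters. In the chondrocyte-like cluster the median of the 73 members tested was −0.02 and −0.14, turning to 0.18 and 0.09 on the deposited mean counts, and −0.14 and −0.16 against the median of all genes. The macrophage-like cluster differed for UAC against sham: its members' median lay 0.04 above the median of all genes, with 19 of 72 members below that median, and for UAC + miR-330 against UAC it was −0.33 against it.

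A gene was called when its CPM, with 0.5 UMI added to each count, differed by at least 1.3-fold between libraries with exact Poisson 95% intervals apart. Genes whose UMIs in both libraries added up to fewer than 100 were left out. Over all clusters, 81 of the 89 members reached 100 UMIs. The others, with values too low to compare, were Rpl7a, Rpl8, Rpl9, Rpl10l, Rpl30l1, Rpl39l, Rplp0l1 and Rps15al4. For UAC against sham, 0 members were higher (9.73% of all genes were) and 2 lower (9.54% of all genes), and 73 of 81 had a ratio below 0. For UAC + miR-330 against UAC, 1 member was higher (23.2% of all genes) and 16 were lower (5.98% of all genes), with 68 of 81 below 0. On the deposited mean counts these turned to 68 above 0 with 0 called (20.4% of all genes higher and 4.68% lower), and to 43 above 0 with 7 higher (46.3%) and 1 lower (2.13%), so the 7 are a smaller share of the members than the higher genes are of all genes. In the chondrocyte-like cluster 73 members were tested. There 0 were higher (13.7%) and 0 lower (1.75%) for UAC against sham, and 1 higher (13.3%) and 6 lower (9.28%) for UAC + miR-330 against UAC. On the deposited mean counts the chondrocyte-like counts were 3 higher (32.4%) and 0 lower (0.545%), then 5 higher (29.8%) and 1 lower (3.69%).

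The other classes had more members lower in UAC + miR-330 against UAC than the chondrocyte-like cluster, except mature neutrophil-like clusters. B-like clusters had 29 of 81 lower (9.03% of all genes) and 1 higher (19.1%). T and NK-like cells had 29 of 72 lower (5.85%) and 1 higher (22.2%). The cycling cluster with erythroid and B markers had 14 of 78 lower (5.31%) and 2 higher (24.3%), the macrophage-like cluster 7 of 72 lower (4.25%) and 1 higher (21.5%), and mature neutrophil-like clusters 5 of 72 lower (2.63%) and 1 higher (32.9%). On the deposited mean counts, the lower members in the same order numbered 7 (2.45%), 6 (1.78%), 1 (1.31%), 1 (1.58%) and 0 (0.975%), and the higher ones 6 (40.6%), 4 (40.9%), 5 (44.2%), 6 (44.7%) and 11 (54.8%). For UAC against sham mature neutrophil-like clusters had 10 of 71 lower (9.62%) and 0 higher (4.94%), which on the deposited mean counts became 3 lower (4.91%) and 1 higher (18.2%). The 3 were Rpl36a, Rpl36al and Rps27l, lower on both scales, and the 1 was Rps9l1. Those neutrophil calls pool 2 sham clusters against 3 UAC clusters, 1 of them without a clear match. A change of makeup and a change within cells therefore cannot be told apart. B-like clusters had 1 lower (4.18%) and 0 higher (5.09%), the macrophage-like cluster 0 lower (8.74%) and 0 higher (6.32%), and the cycling cluster 0 lower (1.92%) and 0 higher (10.5%). On the deposited mean counts B-like clusters had 0 lower (1.29%) and 0 higher (21.3%), the macrophage-like cluster 0 lower (3.88%) and 1 higher (16.4%), and the cycling cluster 0 lower (0.456%) and 0 higher (31.7%). Differences between the classes were not tested, and classes with more UMIs allow more calls.

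Small subunit. All 26 listed core genes were tested, with a median log2 ratio of −0.15 for UAC against sham (26 below 0, no call) and −0.23 for UAC + miR-330 against UAC (22 below 0, 7 lower, 1 higher), both above 0 on the deposited mean counts. From here on, calls between libraries are over the whole library unless a class is named. Of all genes, 9.73% were higher and 9.54% lower for UAC against sham, and 23.2% and 5.98% for UAC + miR-330 against UAC. Rps2, which lines the messenger entry channel, was at 3425 CPM in sham, 3002 in UAC and 2765 in UAC + miR-330. Rps27a, made as a fusion with ubiquitin, was at 3187, 3024 and 2279. Rps2 did not pass the call, and its ratios below 0 turn above 0 on the deposited mean counts. Rps27a, a name that 2 identifiers share, fell in UAC + miR-330 against UAC, with a log2 ratio of −0.41, but was not past the fold on the deposited mean counts.

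Rps19, the gene most often affected in Diamond-Blackfan anaemia and needed for maturing the small subunit, had the largest fall. It was at 1116 CPM in sham (1108 to 1123), 1039 in UAC (1033 to 1046) and 637 in UAC + miR-330 (632 to 642). Over the whole library sham and UAC lie close to each other and UAC + miR-330 stands apart below. The log2 ratio to UAC was −0.71, and the call held on the deposited mean counts, with median-of-ratios scaling and at 1.5-fold. Every class had the fall from CPM. In sham, UAC and UAC + miR-330, Rps19 was at 1339, 1419 and 915 CPM in the chondrocyte-like cluster, at 1009.8, 1057 and 631 in the macrophage-like cluster and at 1098, 997 and 596 in B-like clusters, and it went from 2537 in UAC to 1351 in UAC + miR-330 in T and NK-like cells. Mature neutrophil-like clusters were graded, with 78.3, 59.7 and 41.7, and there Rps19 was also called lower in UAC against sham (−0.39). Neither neutrophil call was made on the deposited mean counts.

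Rps10 moved the other way. Its protein sits at the messenger entry side of the small subunit and is a target of ribosome quality control. It was at 59.4 CPM in sham (57.7 to 61.2), 56.5 in UAC (55.0 to 58.1) and 90.7 in UAC + miR-330 (88.8 to 92.6), a log2 ratio to UAC of 0.68. UAC + miR-330 was high and the other libraries lay together. Rps10 was the 1 member called higher, and it was so under every scaling tried. In the chondrocyte-like cluster it was at 44.3, 47.2 and 77.1, a ratio of 0.71. Macrophage-like clusters had 53.8, 52.0 and 99.2, and B-like clusters 65.9, 64.9 and 93.0. A second name, Rps10l1, carried far more UMIs, at 1882 CPM in sham, 1677 in UAC and 1303 in UAC + miR-330, with a ratio of −0.36 to UAC that did not pass the call. How reads of the same protein divide between the names Rps10 and Rps10l1 cannot be told from these sums, so both are reported as uncertain.

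Other small subunit genes that fell in UAC + miR-330 against UAC were Rps21 (818 CPM in sham, 732 in UAC, 492 in UAC + miR-330), Rps28 (1926, 1859 and 1263), Rps24 (2017, 1856 and 1349), Rps4x (2884, 2599 and 1995) and Rps29 (28.2, 26.5 and 18.1). Their log2 ratios were −0.57, −0.56, −0.46, −0.38 and −0.55, and no call among the 5 held on the deposited mean counts. Rps21 and Rps28 also fell in the chondrocyte-like cluster, from 917 to 667 and from 1744 to 1308 CPM, calls that were lost on the deposited mean counts and at 1.5-fold. In B-like clusters and in T and NK-like cells Rps21 and Rps28 were called lower on the deposited mean counts too, and Rps29 was in B-like clusters.

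Large subunit. Of 43 core genes, 40 were tested, with a median of −0.15 for UAC against sham (38 below 0, 1 lower) and −0.25 for UAC + miR-330 against UAC (34 below 0, 6 lower), the first of which turns above 0 on the deposited mean counts. Rpl41, which encodes the smallest RP, was the most abundant member of all, at 5187 CPM in sham, 4572 in UAC and 3489 in UAC + miR-330. It fell in the last comparison, with a log2 ratio of −0.39 that was not past the fold on the deposited mean counts. Rpl27a was at 3805, 3460 and 2796 and Rpl19 at 3667, 3174 and 2659, both without a call in either comparison.

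Rpl39, at the exit tunnel, was at 1456 CPM in sham, 1321 in UAC and 869 in UAC + miR-330, with a log2 ratio to UAC of −0.60 that passed at 1.5-fold but not on the deposited mean counts. In the chondrocyte-like cluster it fell too, from 1643 to 1162. Rpl36 was at 1926, 1824 and 1272 and fell with a ratio of −0.52. Rpl30, whose yeast homologue regulates its own splicing, was at 1749, 1574 and 1102 and fell with −0.51. Rpl36 and Rpl30 also fell in the chondrocyte-like cluster, from 1564 to 1179 and from 1500.5 to 1129. The calls of Rpl36, Rpl30, Rpl32 and Rpl38 over the library were lost on the deposited mean counts and at 1.5-fold, and so were those of Rpl39, Rpl36 and Rpl30 in the chondrocyte-like cluster. On the deposited mean counts Rpl39 and Rpl36 were called lower in B-like clusters, and Rpl39 and Rpl30 in T and NK-like cells. Rpl32, on 2 identifiers, fell with −0.41 with both counted and was not called on the identifier with most UMIs alone. Rpl38, also on 2 identifiers, had 4.76, 4.75 and 3.62 CPM, too few to carry weight, and passed with −0.39.

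A few large subunit genes stood higher in UAC + miR-330 than in UAC without a call from CPM. Rpl4 was at 443, 422 and 505, with a ratio of 0.26. Rpl23a was at 552, 489 and 562, with 0.20, and Rpl31 at 362, 314 and 355, with 0.18. All 3 were called higher on the deposited mean counts, so their call, though not their direction, rests on the scaling. Rpl21, on 4 identifiers, was at 707, 659 and 716, and Rpl5, part of the 5S particle that restrains MDM2, at 937, 842 and 903. For UAC against sham the 1 large subunit gene past the call was Rpl13a, linked with the GAIT complex of translation control, at 284 in sham (280 to 288), 218 in UAC (215 to 221) and 227 in UAC + miR-330 (224 to 230). Its log2 ratio of −0.38 passed at 1.3-fold and not at 1.5-fold, and was not past the fold on the deposited mean counts or with median-of-ratios scaling. Rpl13a was not called in chondrocyte-like, macrophage-like, mature neutrophil-like or B-like clusters or in the cycling cluster with erythroid and B markers. The part of the makeup of the libraries in its call was not tested. Rpl6 was at 1578, 1265 and 983, with −0.32, and not called. Rpl12 was at 961, 983 and 950.4, with 0.03.

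P stalk. Rplp0, the base of the stalk that recruits elongation factors, was at 3752 CPM in sham, 3284 in UAC and 2895 in UAC + miR-330, with ratios of −0.19 and −0.18 and no call. Its direction turns to slightly above 0 in both comparisons on the deposited mean counts. Rplp2 had 2.76, 2.67 and 1.87 CPM and fell in UAC + miR-330 against UAC with −0.51, a call that was not made on the deposited mean counts. Rplp1 was not listed. In all, 7 core genes stayed under 1000 UMIs in every library: Rps6, Rpl7a, Rpl8, Rpl9, Rpl35a, Rpl38 and Rplp2. Each encodes an obligatory ribosomal protein, so their low counts are a property of these tables and are not read as low expression.

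Paralogs. Of 8 paralogs listed, 6 were tested. Rps27l, a p53-induced paralog of Rps27, fell in UAC against sham: 163 CPM in sham (160.4 to 166), 125 in UAC (123 to 128) and 112 in UAC + miR-330 (110 to 114), a log2 ratio of −0.38. Over the whole library its call, like that of Rpl13a, was lost at 1.5-fold, on the deposited mean counts and with median-of-ratios scaling. By class, Rps27l was called lower in B-like clusters from CPM only and in mature neutrophil-like clusters on both scales. Within the chondrocyte-like cluster it was at 288, 270 and 247 without a call. Rpl22l1, an antagonist of Rpl22 in development, fell in UAC + miR-330 against UAC: 683, 639 and 465, a ratio of −0.46 that was not called on the deposited mean counts. In T and NK-like cells Rpl22l1 was called lower on that scale too. Rpl36al was at 506, 445 and 387, without a call, and Rpl7l1, a nucleolar homologue of Rpl7, at 10.0, 10.1 and 12.3, called higher in UAC + miR-330 against UAC over the whole library on the deposited mean counts only, and in the cycling cluster with erythroid and B markers on both scales. Rps4y2 had 3.04, 3.24 and 2.83 CPM, and 10.8, 12.9 and 7.65 in the chondrocyte-like cluster.

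Rpl39l, a paralog best known from male germ cells, had few UMIs and nearly all of them in 1 place. The chondrocyte-like cluster gave 35 of 41 UMIs in sham, 25 of 26 in UAC and 55 of 56 in UAC + miR-330. That is 3.88 CPM (2.70 to 5.40) in sham, 4.18 (2.71 to 6.17) in UAC and 9.35 (7.04 to 12.2) in UAC + miR-330. B-like clusters had 0 of their 44579740 UMIs in sham, which allows up to 0.0827 CPM, then 1 and 0 UMIs. The UAC + miR-330 level lies apart from UAC, though the gene is under 100 UMIs and was outside the call. Rpl10l, another retrocopy of germ cells, had 17, 17 and 20 UMIs, of which 14, 5 and 6 lay in the chondrocyte-like cluster.

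Rpl3l showed the widest spread over clusters among the 73 members with at least 1000 UMIs in each library. It encodes the form of RPL3 made in heart and skeletal muscle, and is reported as uncertain because UMIs under this name may come from elsewhere in its locus. Library levels were 116 CPM in sham, 91.4 in UAC and 83.9 in UAC + miR-330, not called. B-like clusters had 185 (181 to 189), 171 (167 to 175) and 144 (140.3 to 147), and held 91.7%, 89.5% and 89.9% of its UMIs. The chondrocyte-like cluster had 6.87 (5.27 to 8.81), 5.69 (3.94 to 7.94) and 2.04 (1.05 to 3.56). The highest single clusters were B-like in each library, with 348 in sham cluster 6, 290.2 in UAC cluster 10 and 255 in UAC + miR-330 cluster 4. Cells of the B lineage were thus high and the cartilage cluster low in all 3 libraries.

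Muscle markers had fewer UMIs than Rpl3l itself in each library. The 9 skeletal muscle markers summed to 23.0, 8.88 and 12.9 CPM, 5, 6 and 5 of them with any UMI. Tnni2 was the most abundant in sham and in UAC + miR-330 and Tnnt3 in UAC, and Myh4 and Myh1 were at 0 in all 3. Msrb1, the next gene downstream of Rpl3l in the RefSeq annotation and chosen after values were seen, was highest in mature neutrophil-like clusters, at 1380 CPM in sham, 1519 in UAC and 1506 in UAC + miR-330, where Rpl3l was at 13.6, 10.3 and 6.68. In B-like clusters Msrb1 was at 44.7, 47.6 and 36.3. Neighbour and member were high in different clusters, and where the UMIs under the name Rpl3l come from was not tested.

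Other names. Rps9l1, which stands in the tables where Rps9 does not, was at 1871 CPM in sham, 1730.0 in UAC and 1527 in UAC + miR-330, not called. Rps4x-ps9 was at 40.5, 43.2 and 34.3, Rps18l1 at 13.0, 13.3 and 15.5, Rps19l2 at 2.02, 2.15 and 2.48 and Rps19bp1 at 59.4, 55.6 and 50.2, none of them called from CPM over the whole library. Rps4x-ps9 was called lower from CPM in UAC + miR-330 against UAC in B-like clusters and in T and NK-like cells. Neither call was made on the deposited mean counts. Rps18l1 and Rps19l2 were called higher in UAC + miR-330 against UAC on the deposited mean counts. Rpl35al1, at 1.78, 1.89 and 1.17, was called lower in UAC + miR-330 against UAC with −0.69 and not on the deposited mean counts. In B-like clusters Rpl35al1 was called lower on both scales. Which locus gave these UMIs cannot be told from the tables.

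Departures from the group were measured by each member's share among RP UMIs, which takes out the level of the whole group. Among the 73 members with at least 1000 UMIs in each library, the SD over clusters of the log2 share had a median of 0.24 in sham, 0.27 in UAC and 0.31 in UAC + miR-330. The SD of log2 CPM over clusters had a median of 1.08, 1.27 and 1.20 for the same members and 1.03, 1.16 and 1.11 for all genes at that depth. So the members varied over clusters as much as other genes did, and most of that was common to the group. The SD of the log2 share was above 0.5 for 4 members in sham, 13 in UAC and 18 in UAC + miR-330. The largest mean SDs over the 3 libraries were those of Rpl3l (2.01), Rps27l (0.98), Rps9l1 (0.84), Rpl36a (0.67), Rps18 (0.62), Rps19 (0.59), Rps27 (0.57), Rpl3 (0.53), Rps2 (0.53) and Rpl5 (0.52). The smallest were those of Rps10l1 (0.10), Rps23 (0.11), Rpl29 (0.11), Rps3 (0.12) and Rpl28 (0.12).

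**Figure D2:**
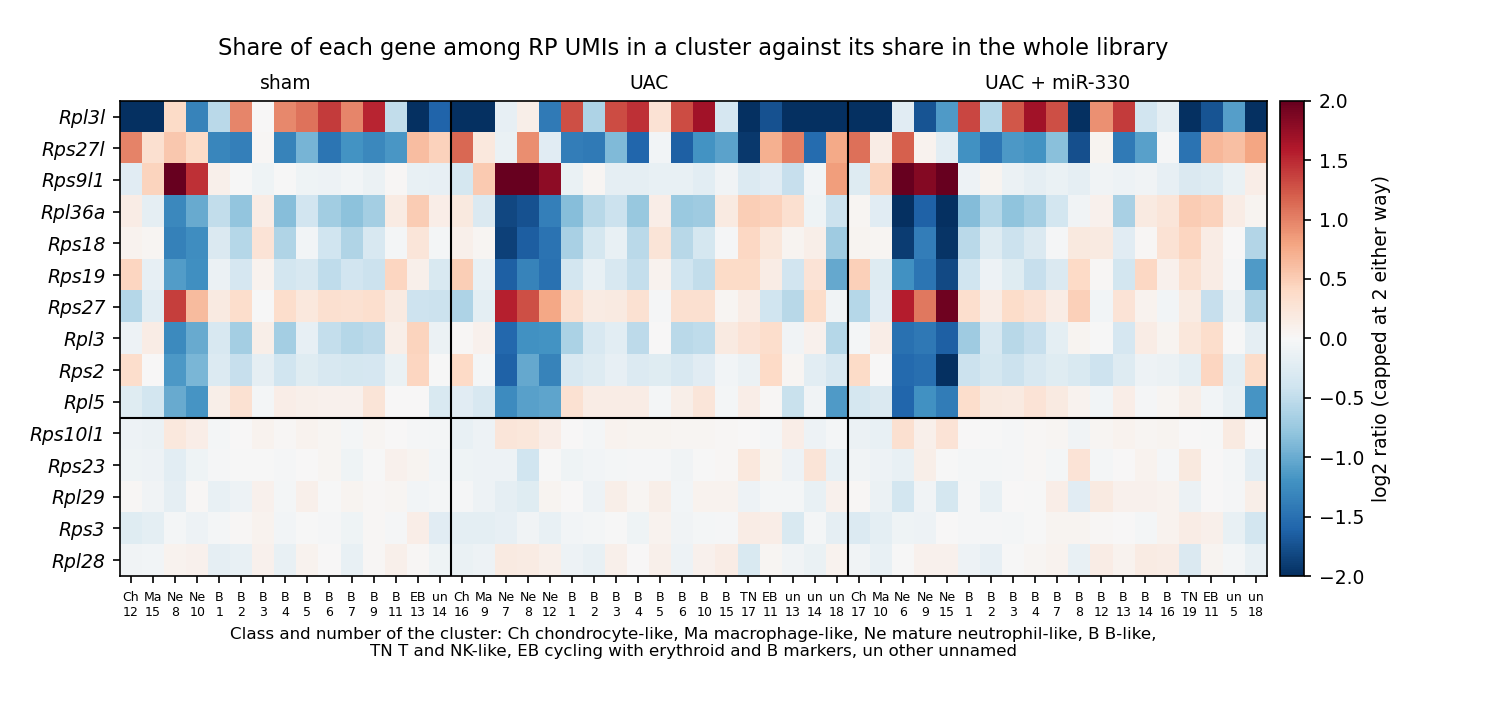
Share of each gene among RP UMIs in every cluster against its share in the whole library, as a log2 ratio capped at 2 either way (colour), for the 10 members with the largest and the 5 with the smallest SD over clusters (rows) and all clusters of the 3 libraries (columns, with class and number). Mature neutrophil-like clusters are high in Rps9l1 and Rps27 and low in Rpl36a, Rps18, Rps19, Rpl3, Rps2 and Rpl5 in each library, and the lower 5 rows stay near 0.

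Among the classes set beside B-like clusters, mature neutrophil-like clusters had the most members past the fold. They also held the fewest RP UMIs of those classes. No share over all genes stands beside these counts, here or for the classes below, so they are not read as a trait of the members. Beside B-like clusters, 10 of 68 members had at least 1.3 times the share among RP UMIs in all 3 libraries and 15 had at most the inverse. Rps9l1 made up 4.81% of neutrophil RP UMIs in sham, 6.37% in UAC and 6.96% in UAC + miR-330, against 1.40%, 1.36% and 1.44% in B-like clusters. Rps27, a zinc finger protein of the small subunit, made up 4.67%, 5.70% and 6.11% against 2.74%, 2.81% and 2.71%. The other members that were higher were Rps27l, Rpl18, Rps25, Rps12, Rplp0, Rpl30, Rpl41 and Rps13. All 10 were counted because they passed in all 3 libraries, so agreement between libraries was set by that choice. Rps18 made up 0.705%, 0.555% and 0.699% against 1.61%, 1.56% and 1.97%. Rpl5 made up 0.333%, 0.330% and 0.369% against 0.766%, 0.776% and 1.02%. Rps19, Rpl36a, Rpl3, Rpl10a and Rps2 were low in the same way, with Rps2 at 1.32%, 1.01% and 0.926% against 2.21%, 2.20% and 2.29%. In CPM Rps9l1 of neutrophils stayed below B-like clusters in each library, at 998, 1211 and 1237 CPM against 1912, 1659 and 1398.

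In the chondrocyte-like cluster members were counted only where they passed in all 3 libraries, so agreement between libraries was set by that choice. Of 71 members, 7 were at least 1.3 times higher as a share among RP UMIs than in B-like clusters and 6 lower by as much in each library. Rps27l made up 0.249% in sham, 0.237% in UAC and 0.242% in UAC + miR-330, against 0.0751%, 0.0615% and 0.0638%. Rps2 made up 3.37%, 3.40% and 3.64% against 2.21%, 2.20% and 2.29%. Rps21, Rps19, Rpl31, Rplp0 and Rps27a were the other members that were higher. Rps27 made up 1.62%, 1.64% and 1.60% against 2.74%, 2.81% and 2.71%. Rpl17, Rpl13a, Rpl27 and Rpl24 were also among those lower.

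Of 70 members in the macrophage-like cluster, 7 were higher and 6 lower than in B-like clusters on the same measure. Rpl10, which joins the large subunit last and is named here after its values were seen, made up 2.03%, 2.16% and 2.27% of macrophage RP UMIs in sham, UAC and UAC + miR-330, against 1.08%, 1.07% and 1.18%. In the cycling cluster with erythroid and B markers, 8 of 74 members were higher and 6 lower. Rpl36a made up 0.987%, 0.952% and 1.01% there against 0.587%, 0.570% and 0.607%. Rpl3 made up 1.59%, 1.61% and 1.65% against 1.04%, 1.09% and 1.12%. Rpl3l was low, at 0.0222%, 0.0234% and 0.0256% against 0.136%, 0.140% and 0.148%. Rps27l was higher than in B-like clusters in all 3 of chondrocyte-like, macrophage-like and mature neutrophil-like clusters and in the cycling cluster, in each library.

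Rps10l1, Rps23, Rpl29, Rps3 and Rpl28 show the other end. Rps23, at the decoding centre, took from 1.89% to 2.30% of RP UMIs over sham clusters, from 1.68% to 2.62% over UAC clusters and from 2.08% to 2.91% over UAC + miR-330 clusters. Rpl28 took from 1.31% to 1.59%, from 1.20% to 1.68% and from 1.19% to 1.63%. Rps10l1 took from 1.34% to 1.69%, from 1.297% to 1.71% and from 1.19% to 1.65%. These genes followed the group from mature neutrophils to cycling precursors.

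Among ribosome components outside the name rule, Rpsa was at 2292 CPM in sham, 2097 in UAC and 1738 in UAC + miR-330. Rack1 was at 972, 853 and 934, and Fau was not listed. Neither Rpsa nor Rack1 was called in either comparison. Of 9 RP genes of Diamond-Blackfan anaemia, 7 were listed and tested, with 0 called for UAC against sham (9.73% of all genes higher and 9.54% lower). For UAC + miR-330 against UAC, 2 were lower (5.98% of all genes) and 1 higher (23.2%), namely Rps19, Rps24 and Rps10. On the deposited mean counts Rps19 and Rps10 stayed called and Rps24 did not. The median of the 7 genes was −0.12 and −0.29.

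Translation factors and other genes with a TOP tract lay close to the members in the first comparison and less far below 0 in the second. Of 16, 14 were tested, with a median of −0.13 for UAC against sham (0 called) and −0.10 for UAC + miR-330 against UAC (1 higher). Tpt1 was the most abundant, at 4233 CPM in sham, 3902 in UAC and 3640 in UAC + miR-330. Pabpc1, the poly(A)-binding protein, rose, from 335 in UAC to 518 in UAC + miR-330, with 297 in sham. Ribosome biogenesis genes lay near the median of all genes: the median of 29 was −0.01 and 0.14, with 1 higher and 0 lower, then 4 higher and 3 lower. Ncl, the nucleolar protein nucleolin, rose, from 376 in UAC to 537 in UAC + miR-330, with 348 in sham. The 9 initiation factors without a TOP tract that were listed of 10 had a median of −0.03 and −0.09, with 0 called and then 1 higher and 3 lower. Of 73 mitochondrial ribosomal protein genes the median was −0.26 and −0.08, with 0 higher and 12 lower, then 2 higher and 3 lower. Beside these counts, 9.73% of all genes were higher and 9.54% lower, then 23.2% higher and 5.98% lower. The medians of these lists are from CPM. On the deposited mean counts all that are below 0 turn above 0 except −0.26 of the mitochondrial RP genes and −0.29 of the Diamond-Blackfan anaemia genes.

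Length of the gene moved with the ratios, in a description made after the data were seen. RP genes are short: the median genomic span in RefSeq was 3120 bases for the members tested and 26235 for other genes tested in UAC against sham, and 62 of 80 members with a span lay in the shortest decile. Other genes of that decile had a median log2 ratio of −0.17 for UAC against sham and −0.16 for UAC + miR-330 against UAC, beside −0.15 and −0.23 for the members in it. The longest decile had 0.04 and 0.39. Over all 11472 and 11620 genes with a span, Spearman's rho between span and ratio was 0.21 and 0.51, across genes, which are not independent replicates and share their libraries. Among members it was −0.07 and 0.07 (n = 80). Restricted to the shortest decile and to at least 100000 UMIs, 43 and 42 other genes had medians of −0.09 and −0.29, beside −0.15 and −0.23 for 48 members. In the chondrocyte-like cluster the shortest decile of other genes had −0.01 and −0.20, beside −0.02 and −0.14 for members. In the macrophage-like cluster it had −0.18 and −0.08, beside −0.003 and −0.15 for members. Mature neutrophil-like clusters had −0.08 and 0.01, beside −0.15 and −0.07, with a rho among members of −0.43 for UAC against sham. B-like clusters had −0.15 and −0.23, beside −0.17 and −0.32. The part of gene length, and of whatever differs between libraries along it, in the RP values was not tested. The mitochondrial share of UMIs, 5.32% in sham, 4.97% in UAC and 4.91% in UAC + miR-330, was lower in the UAC libraries too, and its part was not tested.

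**Figure D3:**
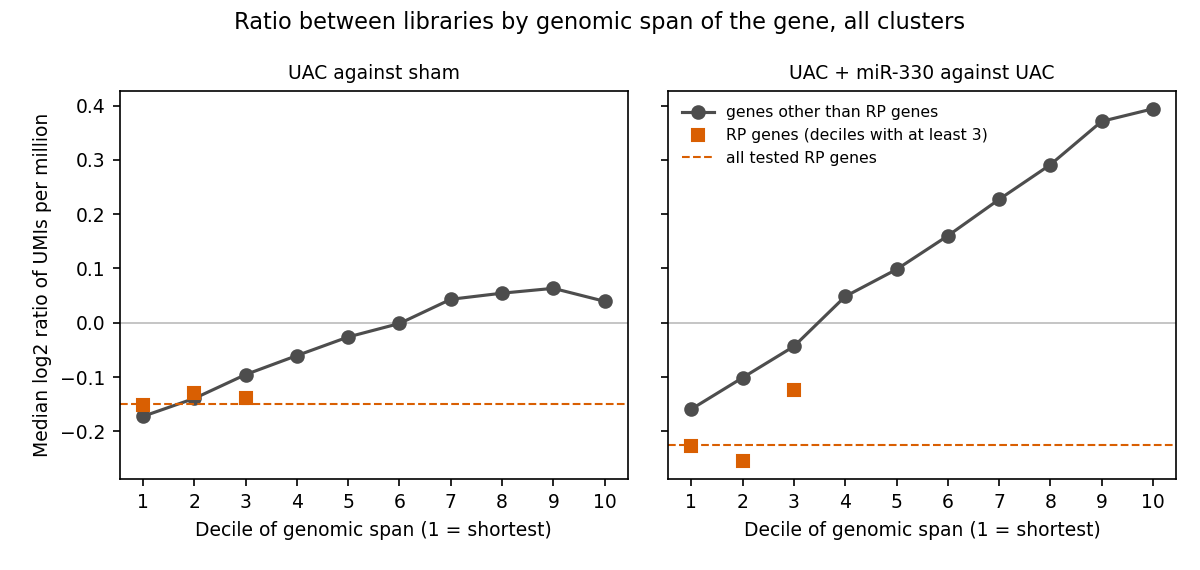
Median log2 ratio of CPM (vertical axis) by decile of genomic span (horizontal axis, 1 the shortest) for genes other than RP genes (line) and for RP genes in deciles with at least 3 of them (squares), with the median of all tested RP genes dashed, for UAC against sham on the left and UAC + miR-330 against UAC on the right. Other genes run from −0.17 in the shortest decile to 0.06 in decile 9 and 0.04 in the longest, and from −0.16 to 0.39, and RP genes lie near the shortest genes; on the deposited mean counts every value is higher by the same shift and the RP medians are 0.05 and 0.01.

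Members that move together are known to share the TOP tract, so the start of each gene was read in the RefSeq promoter table for rat build GRCr8. Of 89 members 66 were matched by name. Pyrimidine runs were searched as CTTTC, as the variant CTTCC and as the longer CTCTTT, of which the first and the last can overlap. The search took the gene strand only, within 15 bases either side of the annotated start. The letters stood in 36 of 66 members (54.5%), beside 3359 of 33469 promoters in the table (10.0%). They stood in 11 of 19 small subunit genes, 23 of 35 large subunit genes, 1 of 2 P stalk genes, 0 of 5 paralogs and 1 of 5 other names. The median log2 ratio with and without the letters was −0.14 and −0.15 for UAC against sham, and −0.26 and −0.23 for UAC + miR-330 against UAC, so members with the letters did not stand apart. The windows of members that fell, rose or departed follow with the searched letters in capitals, first 4 with them and then 3 without. A match describes these letters and nothing more, and an annotated start can miss the start used in these cells.
Rps21 (chr3:187724023-187724052, plus strand): gaacgagccaCTTCCTTTCtgtgttctccg
Rpl39 (chrX:121195882-121195911, minus strand): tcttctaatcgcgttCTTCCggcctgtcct
Rps10 (chr20:5700730-5700759, minus strand): gccgcgcacgcccCTTCCTTTCcagcctcc
Rps27 (chr2:177964592-177964621, minus strand): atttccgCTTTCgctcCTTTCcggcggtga
Rps19 (chr1:89608673-89608702, plus strand): cccgacttgtgcgcccgggaaaccccgtcg
Rps27l (chr8:76443643-76443672, plus strand): gtttattcatttgtcattatttgtggtgtc
Rpl3l (chr10:14258431-14258460, plus strand): gacctctggtgcctggtggggaggtccctt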

How the data were processed

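The authors' processing notes name Cell Ranger 7.0, STAR and Seurat 4.0.1 and the builds GRCh38 and mm10, though the identifiers are rat Ensembl genes. The deposited tables hold, per graph-based cluster, a mean signal value ("mean counts") per gene, a log2 fold change and an adjusted p value of the cluster against the rest. The last 2 were not used. Each mean divided by the smallest positive mean of its column gave whole numbers, taken as UMIs, and names on several identifiers were added. CPM (UMIs scaled to a total of 1000000), shares with exact (Clopper-Pearson) 95% intervals and exact Poisson 95% intervals were computed in Python 3.11.15 with pandas 2.3.3, NumPy 2.4.6 and SciPy 1.17.1, and figures in matplotlib 3.10.9. A cluster took a class from at least 3 markers enriched over the rest of its library. B-like also covered clusters where no class had more enriched markers and at least 5 B markers reached 4 times a low level. That level was the mean of the 3 lowest clusters for each marker. So a B-like cluster need not have enriched B markers. Sham cluster 3, UAC cluster 5 and UAC + miR-330 cluster 16, all cycling, had 0. Outside B-like clusters, a second class with more than 2/3 as many enriched markers left a cluster unnamed. A class with more markers among the 10 leading genes did so too, and so did 5 or more B markers on the measure of lowest clusters. This B limit left the cycling cluster with erythroid and B markers unnamed in each library. Doublets were not treated and free RNA was not subtracted. Members, lists and the rule for named genes (most UMIs per subunit, largest and smallest SD over clusters, paralogs, largest rises and falls, companions, several identifiers) were chosen with earlier results of these data known. Calls were also made on simulated counts as a check. Alternatives changed the denominator, members, cluster weights, scaling, fold, count minimum and added count.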

Additional observations from a re-analysis of the deposited data

How the results depend on the processing

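Over 15 results, 72 alternative values were computed. All 18 alternatives of the RP share had a log2 ratio below 0, but none of them uses the deposited mean counts, on which the members' median over all clusters turns above 0 in both comparisons. For UAC against sham over all clusters the ratio was −0.16 without mitochondrial entries, −0.12 without haemoglobin, immunoglobulin, S100a8 and S100a9, −0.12 with clusters weighted equally and −0.17 without the cluster with most RP UMIs. For UAC + miR-330 against UAC it was −0.27 without the same abundant genes, −0.24 with core genes alone, −0.25 with equal weights and −0.26 without that cluster. The range over clusters became 19.1 points in sham, 21.2 in UAC and 16.3 in UAC + miR-330 without mitochondrial entries, and 17.3, 19.4 and 15.1 without the abundant genes. Of 48 alternative counts, 35 stayed within 1.5 times the main count, but 17 of these were 0 beside a main count of 0 and say nothing of stability. UAC against sham had 0 lower members on deposited mean counts (4.68% of all genes), with median-of-ratios scaling (8.70%) and at 1.5-fold (5.12%), and 3 higher (32.4%) in the chondrocyte-like cluster on deposited mean counts. UAC + miR-330 against UAC had 7 higher (46.3% of all genes) and 1 lower (2.13%) on deposited mean counts, 36 lower (12.1%) with median-of-ratios scaling, 3 lower (2.86%) at 1.5-fold and 2 higher (15.9%, Rpl39l added) from 1 UMI. In the chondrocyte-like cluster it had 5 higher (29.8%) and 1 lower (3.69%) on deposited mean counts, 1 lower (5.64%) at 1.5-fold and 2 higher (7.33%) from 1 UMI. The cause was not tested. No paired analysis was possible because each group has 1 library.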
